A study of Mus musculus with 4 samples.

Results

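Ligands and antagonists of the transforming growth factor beta (TGF-beta) and bone morphogenetic protein (BMP) system, 9 genes in all, were followed through 4 RNA libraries of primary mouse ear fibroblasts. They were chosen by name and found by pairing the Ensembl gene IDs of both count tables with mouse gene symbols, and all 9 were present among the 55536 genes of the tables. By role they were the ligand genes Inhba, Tgfb1, Tgfb2, Tgfb3, Bmp2 and Bmp4, the genes Grem1 and Fst for secreted antagonists, and Bmp1, whose product is a protease despite its name. The fibroblasts came from ears of C57BL/6 mice, were held with KN93 for 48 h, a treatment for synchronizing the cell cycle, and were then transfected for 24 h. The groups are named AF357425-High and AF357425-Low (High and Low from here on) after AF357425, a small nucleolar RNA of the C/D box class and the mouse relative of human SNORD113-6. The labels give overexpression for High and inhibition for Low as treatments, whereas the protocol common to all samples speaks of gapmers (antisense oligonucleotides) to AF357425 or scrambled ones, so which transfection made which group cannot be told apart here. Each state gave 1 library of whole-cell RNA and 1 library of RNA recovered with an antibody to fibrillarin, the methyltransferase that works with RNAs of that class. How many mice or cultures stand behind a library was not stated in the labels.

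TGF-beta ligands are secreted in latent complexes, are set free in the matrix and signal through a pair of receptor kinases to SMAD2 and SMAD3. Activin A, a dimer of the chain encoded by Inhba, uses the same SMADs, whereas BMPs signal through SMAD1, SMAD5 and SMAD9. Gremlin-1 (Grem1) binds BMP2 and BMP4, and follistatin (Fst) binds activin, so that each keeps its ligand from the receptors. The Bmp1 protease trims procollagens and cleaves the BMP antagonist chordin. In fibroblasts the system is known for its control of matrix production, contractility and proliferation.

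Gene-assigned reads numbered between 21693030 and 27832061 per library. With 1 library in each group there was no replicate check and no test between groups. All intervals are at the 95% level and cover counting error only, not variation between cultures or libraries. Amplified reads that carry no molecular identifier do not each stand for a molecule, so the intervals can be too narrow even for counting error. AF357425 itself had 0 reads in every library, which allows up to 0.108 to 0.138 CPM (reads scaled to 1000000 gene-assigned reads), so the states could not be checked by their target. The fibroblast markers Col1a1, Col1a2, Pdgfra, Pdgfrb, Thy1 and Vim had between 2153 and 84317 reads in each library, Dcn had 355 to 679 and Lum only 12 to 63. Of markers of other cells, those of skeletal muscle (Myod1, Myog and Ckm) were at 0 in all 4 libraries, keratinocyte markers summed to at most 0.507 CPM and immune markers to at most 3.35 CPM. Endothelial markers summed to at most 1.71 CPM, Schwann cell markers to 2.04, adipocyte markers to 0.553 and mast cell markers to 0.0461. Smooth muscle and pericyte markers summed to 1298.2 CPM in High and 1424.6 CPM in Low whole-cell RNA. Of these sums, the actin gene Acta2 made up 1295.6 and 1422.2 CPM. Chondrocyte markers were present: their 6 genes summed to 288.2 CPM in High and 202.6 CPM in Low whole-cell RNA, and to 113.3 and 140.6 CPM in the pulldowns. Genes are not compared with each other in level, because exon lengths were not used here.

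Promoter sequences of 5 of the 9 genes were at hand from RefSeq (GRCm38.p6), and those of Grem1 and Tgfb2 are shown because the results below turn on these genes: Grem1 differed most between the states among the well covered ones, and Tgfb2 alone had more CPM in the pulldown than in whole-cell RNA. Each run is the 250 bases before the transcript start that RefSeq's promoter entry uses, on the gene's own (minus) strand, at chr2:113758649-113758898 for Grem1 and chr1:186705990-186706239 for Tgfb2. The Tgfb2 window belongs to a transcript start that lies inside the gene's annotated span, which reaches farther upstream to 186709697. Capitals mark matches, on either strand, to 6 short motifs. The TATA box was searched as TATAAA and the CAGA box, a sequence that SMAD proteins bind, as CAGACA. The site of AP-1 factors was searched as TGANTCA and that of TEAD factors as GGAATG. The half-site of the cyclic AMP response element (CRE) was searched as TGACG and the E-box as CACGTG.
Grem1: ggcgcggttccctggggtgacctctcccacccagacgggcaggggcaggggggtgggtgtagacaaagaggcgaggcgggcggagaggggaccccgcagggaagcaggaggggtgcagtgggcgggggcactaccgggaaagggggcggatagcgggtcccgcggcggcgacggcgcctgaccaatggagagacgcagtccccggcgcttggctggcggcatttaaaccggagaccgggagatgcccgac
Tgfb2: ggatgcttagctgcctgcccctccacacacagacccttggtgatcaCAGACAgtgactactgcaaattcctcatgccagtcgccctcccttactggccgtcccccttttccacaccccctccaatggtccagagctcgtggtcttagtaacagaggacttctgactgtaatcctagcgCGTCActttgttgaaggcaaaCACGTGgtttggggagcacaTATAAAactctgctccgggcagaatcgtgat
The Tgfb2 window held TATAAA starting 31 bases before the start, an E-box at 51, a CRE half-site at 72 and a CAGA box at 204, none of which overlapped. Over all 32851 windows of this length, 12.4% held TATAAA, 6.02% the E-box, 17.8% the CRE half-site and 17.1% the CAGA box, while 6.75% held the AP-1 and 12.6% the TEAD letters. The Grem1 window, with 72.0% G and C against 53.6% for Tgfb2 and a median of 52.4% over all windows, had no match to any of the 6, which says only that these letters are not in it. A match is a description of the letters, and no binding was measured at these places.

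The antagonist gene Grem1 (ENSMUSG00000074934, chromosome 2, 113748675 to 113758648 in GRCm38.p6) was lower in High than in Low among whole-cell reads, and the pulldown had the reverse order. It had 10919 reads (494.5 CPM) in High and 16742 reads (771.8 CPM) in Low whole-cell RNA, and 3881 reads (150.1 CPM) and 2158 reads (77.5 CPM) in the pulldowns. The order of the libraries was therefore Low above High in whole-cell RNA, then High above Low in the pulldown, and none of the 4 counting intervals overlapped. After TMM scaling, which sets library sizes by a trimmed mean of gene ratios, the log2 ratio of High to Low was -0.71 (-0.74 to -0.67) in whole-cell RNA, a 1.63-fold difference, and only 2.32% of the 13519 genes tested lay lower. In bulk RNA, fewer cells that make a transcript and less of it per cell cannot be told apart. The pulldown ratio was 1.25 (1.17 to 1.32), or 2.37-fold, with 95.5% of the 10736 genes tested lying lower. With library totals the 2 ratios were -0.64 and 0.95, and the second then no longer lay beyond 2-fold with its whole interval (0.88 to 1.03).

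The other antagonist gene, Fst (ENSMUSG00000021765, chromosome 13, 114452262 to 114458989), had the opposite pattern. Its reads were 1912 (86.6 CPM) in High and 1285 (59.2 CPM) in Low whole-cell RNA, against 853 (33.0 CPM) and 1445 (51.9 CPM) in the pulldowns. The whole-cell library of High was thus the highest and the pulldown of the same state the lowest. Its log2 ratio between the states was 0.48 (0.38 to 0.59) in whole-cell RNA and -0.36 (-0.48 to -0.24) in the pulldown. Both signs were the same with library totals, at 0.55 and -0.65.

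Among the TGF-beta genes, Tgfb1 and Tgfb3 differed little between the states in whole-cell RNA. Tgfb1 (ENSMUSG00000002603, chromosome 7, 25687002 to 25705077), the founding ligand of the family, had 1182 and 1211 reads in High and Low whole-cell RNA (53.5 and 55.8 CPM) and 74 and 104 reads in the pulldowns (2.86 and 3.74 CPM). Its levels in the states overlapped within their counting intervals in either kind of library, with log2 ratios of -0.13 (-0.24 to -0.0087) and -0.090 (-0.54 to 0.35). Tgfb3 (ENSMUSG00000021253, chromosome 12, 86056743 to 86079041) had 3565 and 3460 reads in whole-cell RNA (161.4 and 159.5 CPM) and 824 and 906 in the pulldowns (31.9 and 32.6 CPM). The Tgfb3 ratio was -0.047 (-0.12 to 0.021) in whole-cell RNA and 0.26 (0.13 to 0.40) in the pulldown, and each sign changed with library totals (0.017 and -0.031).

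Tgfb2 (ENSMUSG00000039239, chromosome 1, 186622787 to 186709697) was lower in High whole-cell RNA. It had 379 reads (17.2 CPM) against 480 (22.1 CPM) there, and 870 reads (33.6 CPM) against 1231 (44.2 CPM) in the pulldowns. Both pulldown libraries therefore lay above both whole-cell libraries, the reverse of the order for every other member with more than 100 reads in the whole-cell libraries. The log2 ratio between the states was -0.43 (-0.63 to -0.23) in whole-cell RNA, with 7.79% of genes lower, and -0.100 (-0.23 to 0.027) in the pulldown. With library totals the pulldown ratio was -0.39 (-0.52 to -0.27).

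Inhba (ENSMUSG00000041324, chromosome 13, 16004256 to 16031609), which encodes the chain of activin A, varied least over the 4 libraries among the members with at least 20 reads in each. Its values were 10041 reads (454.7 CPM) and 8913 reads (410.9 CPM) in High and Low whole-cell RNA and 8545 (330.5 CPM) and 9125 (327.9 CPM) in the pulldowns. The whole-cell libraries lay above the pulldowns, and the 2 pulldowns overlapped in their counting intervals. Its log2 ratio between the states was 0.081 (0.040 to 0.12) in whole-cell RNA and 0.31 (0.26 to 0.35) in the pulldown, the latter being 0.011 (-0.031 to 0.054) with library totals.

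The BMP ligand genes were thinly covered. Bmp2 (ENSMUSG00000027358, chromosome 2, 133552159 to 133562896) had 13 and 34 reads in High and Low whole-cell RNA (0.589 and 1.57 CPM) and 0 and 2 in the pulldowns, at or under the limit of 3 reads, so no ratio is given there. Its whole-cell log2 ratio was -1.48 with a wide interval (-2.52 to -0.52), and it passed the minimum mean of 1 CPM only through the Low library. Bmp4 (ENSMUSG00000021835, chromosome 14, 46383525 to 46390669) had 23 and 29 reads in whole-cell RNA (1.04 and 1.34 CPM) and 12 and 32 in the pulldowns (0.464 and 1.15 CPM). The Bmp4 ratio in whole-cell RNA was -0.43 (-1.28 to 0.42), so a difference was not detectable at this depth, and the pulldown mean was under 1 CPM.

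Bmp1 (ENSMUSG00000022098, chromosome 14, 70474555 to 70520716) had 6082 reads (275.4 CPM) in High and 6866 reads (316.5 CPM) in Low whole-cell RNA, and 435 (16.8 CPM) and 469 (16.9 CPM) in the pulldowns. The whole-cell libraries stood far above the pulldowns, which overlapped each other. Its ratio between the states was -0.27 (-0.32 to -0.22) in whole-cell RNA and 0.29 (0.10 to 0.48) in the pulldown, where it was -0.0024 with library totals.

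**Figure D1:**
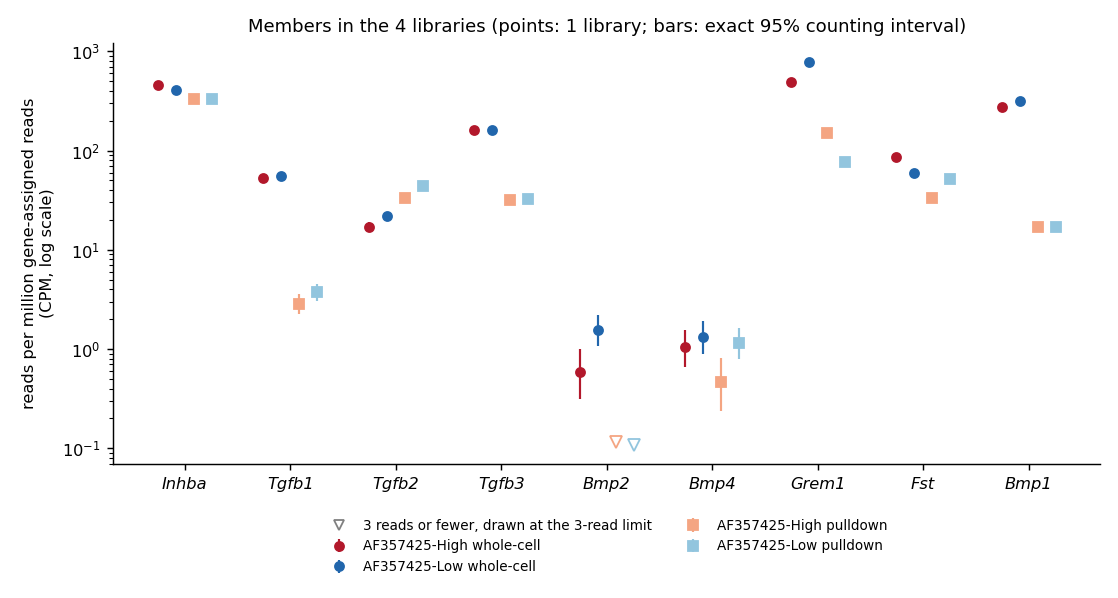
CPM (log scale) of the 9 genes in the 4 libraries; each point is 1 library, bars are exact 95% counting intervals, and open triangles stand for 3 reads or fewer. Grem1 lay at 494.5 and 771.8 CPM in whole-cell RNA and at 150.1 and 77.5 CPM in the pulldowns, with the order of the states exchanged, and Tgfb2 had both pulldowns above both whole-cell libraries.

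A gene was counted as differing where the whole interval of its ratio lay beyond 2-fold. In whole-cell RNA this held for 0 of the 9 genes, against 0.111% of all genes higher and 0.133% lower (15 and 18 genes; 18 and 14 with library totals). In the pulldown it held for 1 of the 7 genes that reached the minimum mean, Grem1, against 3.43% of all genes higher, and 0 were lower, against 2.9% (368 higher and 311 lower in all; 238 and 608 with library totals, which move the median ratio of all genes by 0.29 to lower values). On the weaker criterion of an interval that lies wholly on 1 side of no difference, 2 of 9 genes were higher in High whole-cell RNA (Inhba and Fst) against 18% of all genes, and 4 lower (Tgfb1, Tgfb2, Grem1 and Bmp1) against 20.5%. The interval of Tgfb1 included 0 under the other 3 scalings. Bmp2 also lay wholly below 0 but is left out of that count, since it passed the filter only through Low. In the pulldown 4 of 7 were higher on that criterion (Inhba, Tgfb3, Grem1 and Bmp1) against 31.5% of all genes, and 1 lower (Fst) against 32.5%; with library totals the intervals of Inhba, Tgfb3 and Bmp1 included 0. The median over the 9 whole-cell ratios was -0.27, Bmp2 included, beside -0.0086 over all genes, and 2 of 9 lay above 0 (3 with library totals). Bmp2 had the lowest ratio of the 9 and so pulls that median down. Of the 5 genes whose annotated span meets that of another gene, Inhba, Tgfb2, Bmp4, Fst and Bmp1, reads can be uncertain because the labels state no strand setting for the counting. Grem1, Tgfb1, Tgfb3 and Bmp2 overlap no other gene.

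**Figure D2:**
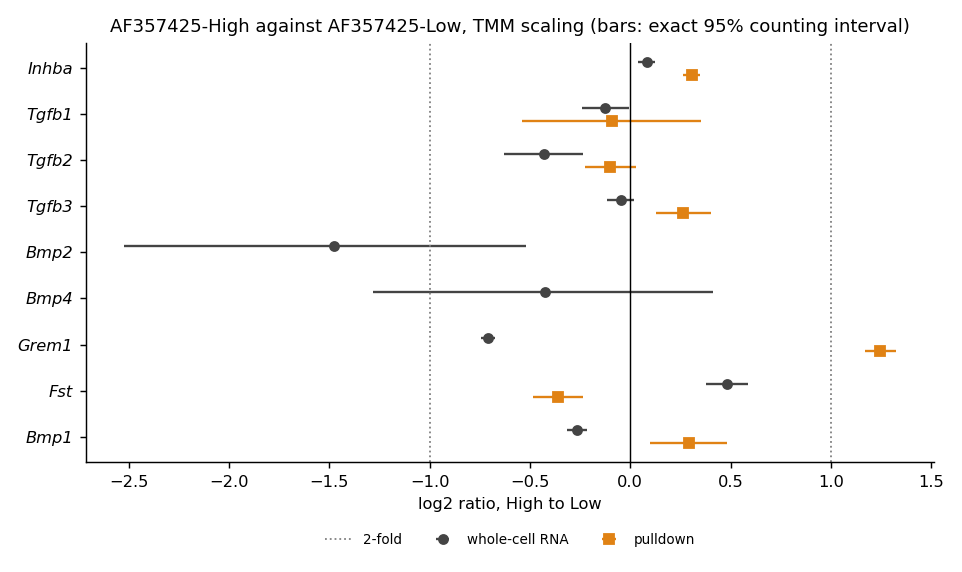
Log2 ratio of High to Low after TMM scaling for each gene, in whole-cell RNA (circles) and in the pulldown (squares), with exact 95% counting intervals and dotted lines at 2-fold. Grem1 lies at -0.71 and 1.25, Fst at 0.48 and -0.36, and Bmp2 and Bmp4 have no pulldown value because their mean there was under 1 CPM.

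For 3 of the 7 genes measured in both kinds of library, Grem1, Fst and Bmp1, the whole-cell and pulldown intervals lay on opposite sides of no difference, as they did for 13% of 10366 genes. Lower in whole-cell RNA with higher in the pulldown, as for Grem1 and Bmp1, made up 6.71% of genes, and the reverse, as for Fst, 6.24%. Only Grem1 and Fst kept this with library totals. From Low to High, the change in the ratio of pulldown to whole-cell RNA was 1.95 on the log2 scale (1.87 to 2.04) for Grem1, or 3.88-fold, and 98.6% of the 11356 genes that reached 10 reads per library lay lower. Grem1 was the only 1 of 8 genes whose change lay beyond 2-fold upwards, against 2.65% of all genes, and 0 were lower, against 1.66% (301 higher and 189 lower; 135 and 578 with library totals, and 230 and 274 with totals that leave out the 20 most abundant genes). For Fst the change was -0.84 (upper bound -0.68), with 10.1% of genes lower, and -1.20 (-1.36 to -1.04) with library totals, where it lay beyond 2-fold. Bmp1 had 0.56 (0.36 to 0.75) and Bmp4 -0.59 (-1.83 to 0.65). In all, 5 of 8 intervals lay above 0, against 28.5% over all genes, and 1 below, against 28.2%. With library totals 2 lay above 0 (Grem1 and Bmp1) and 2 below (Inhba and Fst). The changes of Inhba, Tgfb1, Tgfb2 and Tgfb3 lay between 0.035 and 0.33, and all 4 were below 0 with library totals, between -0.32 and -0.028. The median change over all genes was -0.36 with library totals, below all 4, and -0.0003 with TMM.

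By library totals, 6 of the 7 genes measured had lower values in the pulldown than in whole-cell RNA in both states, by very different amounts, and Tgfb2 had higher ones. The mitochondrial ribosomal genes mt-Rnr1 and mt-Rnr2 accounted for 63.4% (High) and 59.8% (Low) of pulldown reads, and by library totals the median gene had a log2 ratio of pulldown to whole-cell RNA of -2.16 in High and -1.76 in Low. Tgfb1 stood at -4.23 (-4.58 to -3.89) and -3.90 (-4.20 to -3.61), and Bmp1 at -4.03 (-4.18 to -3.89) and -4.23 (-4.37 to -4.10), with 7.98% to 12.4% of the 12795 genes tested lying lower. These 2 genes were below 0 and beyond 2-fold in both states under every scaling tried. Tgfb2 was at the other end, at 0.97 (0.80 to 1.15) and 1.00 (0.85 to 1.15), and 97.1% and 96.5% of genes lay lower in the 2 states. It was above 0 under every scaling tried, and beyond 2-fold in both states with each of the 3 alternatives to library totals.

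Between these ends, Tgfb3 stood at -2.34 (-2.45 to -2.23) in High and -2.29 (-2.40 to -2.19) in Low, close to the median gene. Inhba had -0.46 (-0.50 to -0.42) and -0.33 (-0.37 to -0.28), above 89.0% and 84.1% of genes. The antagonist genes were those whose ratio differed most between the states. Grem1 had -1.72 (-1.77 to -1.67) in High, with 62.3% of genes lower, and -3.32 (-3.38 to -3.25) in Low, with 17.6% lower. Fst had -1.39 (-1.51 to -1.27) and -0.19 (-0.30 to -0.081), with 71.1% and 86.4% of genes lower. In both states, 4 of 7 genes were lower in the pulldown beyond 2-fold, Tgfb1, Tgfb3, Grem1 and Bmp1, and 59.7% of all genes were, while 0 were higher, against 1.56%. This split rests on the scaling: with TMM, 2 genes were lower beyond 2-fold in both states (Tgfb1 and Bmp1) and 2 higher (Inhba and Tgfb2), and over all genes 2258 were lower and 1151 higher in place of 7634 and 200. Tgfb3 in both states, and Grem1 in High, were not beyond 2-fold under any of the 3 alternatives to library totals. On the weaker criterion 1 of 7 was higher in both states (Tgfb2) against 3.81% of genes, and 6 lower against 83.7%. The signs of Inhba and Fst, and that of Grem1 in High, depended on the scaling. Reads that met more than 1 gene and were set aside made up 9.38% and 8.54% of the pulldown fragments and 1.05% and 1.09% of the whole-cell ones, and their part in these ratios was not tested.

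**Figure D3:**
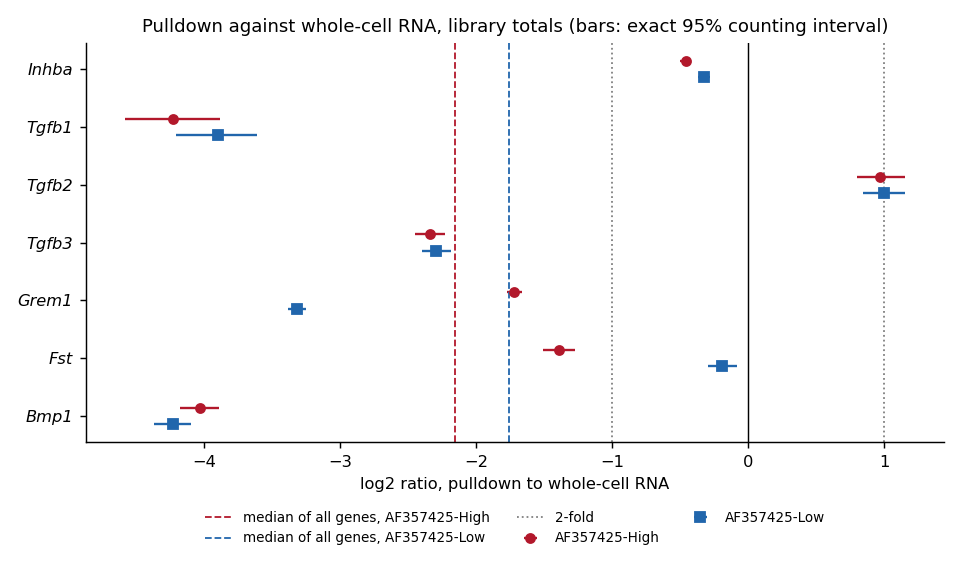
Log2 ratio of pulldown to whole-cell RNA by library totals in High (circles) and Low (squares), with exact 95% counting intervals, for the 7 genes that averaged 1 CPM or more across all libraries. Dashed lines mark the median of all genes at -2.16 and -1.76; Tgfb1 and Bmp1 lie to the left of both, Tgfb2 to the right of 0, and the states are farthest apart for Grem1 and Fst.

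The remaining genes of the system were taken from 10 lists by role, 126 genes in all. In the state comparisons, 0 of 97 tested in whole-cell RNA and 0 of 86 in the pulldown lay beyond 2-fold. The genes named from these lists are, unless a list is given whole, those that stood out after their values were seen. Of the other ligands of the superfamily, 2 of 12 had a whole-cell ratio above 0 (3 with each other scaling), with a median of -0.38. Over all genes the share above 0 in whole-cell RNA was 48.2%, which serves for each list below. In the pulldown 6 of 7 were above 0 (4 or 5 with the other scalings), with a median of 0.49. The change in ratio was above 0 for 8 of 8 (7 with library totals). The shares above 0 over all genes, after TMM scaling, were 49.2% in the pulldown and 49.98% for the change in ratio. In whole-cell RNA the growth and differentiation factor genes Gdf6, Gdf7 and Gdf5 had -0.79 (-1.01 to -0.58), -0.99 (-1.51 to -0.48) and -0.66 (-1.11 to -0.21). The stress-induced Gdf15 had 0.68 (0.18 to 1.21) there. Inhbb, the chain of activin B, had -0.099 (-0.22 to 0.019) in whole-cell RNA and 1.15 (0.95 to 1.36) in the pulldown. Its change in the ratio of pulldown to whole-cell RNA, 1.25 (1.02 to 1.49), lay beyond 2-fold, which Inhba's change did not.

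Among the other secreted antagonists, 9 of 14 whole-cell ratios were above 0 (10 or 11 with the other scalings), with a median of 0.10. Smoc1, a matrix protein that binds BMPs, had 0.84 (0.53 to 1.16) in whole-cell RNA. Of genes for latency, storage and activation, 7 of 13 whole-cell ratios were above 0 (8 with the other scalings). The latent TGF-beta binding proteins Ltbp1 and Ltbp3 had -0.31 (-0.35 to -0.28) and -0.28 (-0.32 to -0.24), and the proprotein convertase Pcsk6 had 0.55 (0.37 to 0.73).

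Receptors and co-receptors had 7 of 15 whole-cell ratios above 0 under all 4 scalings, with a median of -0.075. Of their pulldown ratios 4 of 14 were above 0, beside 49.2% of all genes, with a median of -0.30. The type I receptors Tgfbr1 and Acvr1b, which bind TGF-beta and activin, had 0.46 (0.37 to 0.54) and 0.51 (0.39 to 0.63) in whole-cell RNA. In the pulldown Tgfbr1 had -0.32 (-0.43 to -0.22) and Acvr1b -0.097 (-0.23 to 0.039). The type II receptor Tgfbr2 had -0.13 (-0.17 to -0.087) and 0.32 (0.25 to 0.39). SMAD genes had 4 of 6 whole-cell ratios above 0 (5 with the other scalings), with Smad9 at 0.48 (0.11 to 0.85) and, in the pulldown, at -0.98 (-1.34 to -0.62). Inhibitors inside the cell had 7 of 9 whole-cell ratios above 0 (8 with the other scalings) and a median of 0.092, with Smad6 at 0.37 (0.24 to 0.51) as the highest.

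BMP response genes were above 0 in whole-cell RNA in all 13 cases tested, of 15 listed, under all 4 scalings. Their median was 0.35, and 9 of 13 had an interval wholly above 0, where 18% of all genes did. The DNA-binding inhibitor genes of the Id family, direct targets of BMP SMADs, had 0.15 (Id1, 0.052 to 0.26), 0.42 (Id2, 0.27 to 0.57), 0.35 (Id3, 0.27 to 0.42) and 0.48 (Id4, 0.28 to 0.68). The feedback inhibitors Smad6 and Smad7 had 0.37 (0.24 to 0.51) and 0.23 (0.16 to 0.29), and the pseudoreceptor Bambi had 0.36 (0.018 to 0.70). The transcription factor genes Atoh8 and Msx2 had 0.51 (0.38 to 0.65) and 0.85 (0.14 to 1.60), while Dlx5, Msx1, Hey1 and Runx2, between 0.012 and 0.19, had intervals that included 0. In the pulldown, 3 of 11 were above 0 (1 with library totals), with a median of -0.22, beside 49.2% of all genes above 0. The genes Smad6, Smad7, Id4 and Dlx5 had pulldown intervals wholly below 0, 4 of 11, which is close to the 32.5% of all genes. Only 1 of 11 lay wholly above 0, where 31.5% of all genes did. The change in the ratio of pulldown to whole-cell RNA lay wholly below 0 for 7 of 11, where 28.2% of all genes did. It was below 0 for 9 of 11 (11 with library totals). Dlx5 had -1.65 (-2.39 to -0.96) in the pulldown, with 22 reads (0.851 CPM) in High and 91 (3.27 CPM) in Low. It passed the minimum mean of 1 CPM there only through the Low library, so its place in that count rests on Low.

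The median of the BMP response genes had the opposite sign to Grem1 in each kind of library. Whether Grem1 had a part in the BMP response ratios was not tested, and libraries without replicates could not decide it. The pulldown ratios describe RNA recovered with the antibody. The share of BMP response genes with intervals below 0 there was close to that of all genes. The share with intervals above 0 was lower, 1 of 11 against 31.5%. Chondrocyte markers were higher in High whole-cell RNA, where the list summed to 288.2 against 202.6 CPM in Low. Col2a1 had 1922 reads against 766 and Cnmd 99 against 14, with log2 ratios of 1.24 and 2.73. Cnmd was under 1 CPM in Low (0.645). Sox9, the marker with most reads, differed less, with 3727 against 3219 and a log2 ratio of 0.12. In the pulldown Sox9, Col2a1 and Cnmd, the markers with most reads, were level after TMM scaling, with log2 ratios of 0.0049, 0.012 and -0.048. Comp had 63 against 95 reads there, with a log2 ratio of -0.19. Acan (4 against 17 reads) and Matn3 (3 against 21) were under 1 CPM in each pulldown, so no ratio is given for them. The sums by library totals were 113.3 and 140.6 CPM. The part of chondrocyte markers in the BMP response ratios was not tested. Smad6, Smad7 and Bambi also belong to other lists here.

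**Figure D4:**
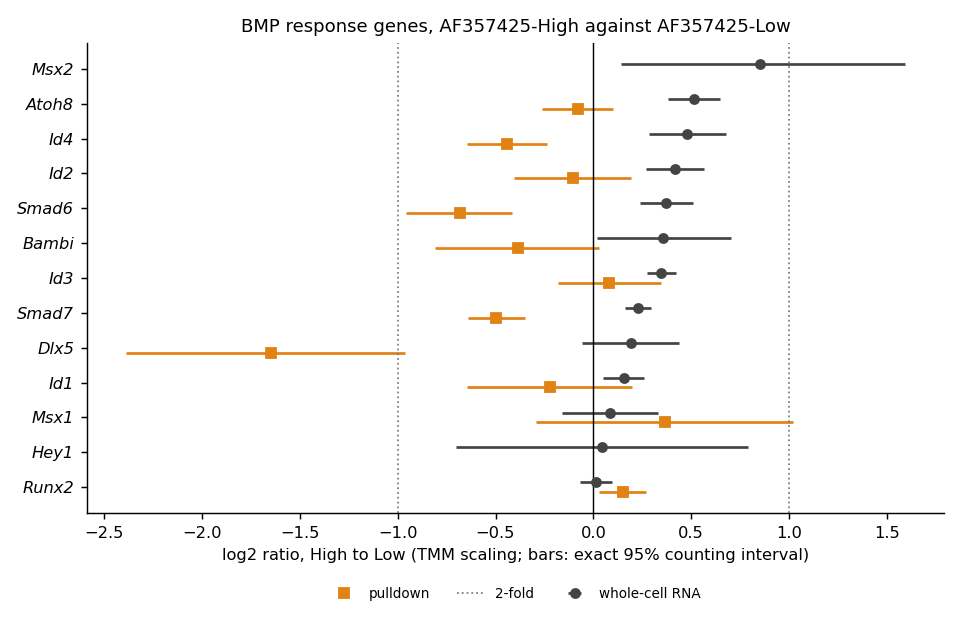
Log2 ratio of High to Low (TMM scaling, exact 95% counting intervals) for the 13 BMP response genes tested in whole-cell RNA (circles) and the 11 tested in the pulldown (squares), with dotted lines at 2-fold. All circles lie to the right of 0, and 8 of the 11 squares to the left.

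TGF-beta response genes had no common direction in whole-cell RNA, with 9 of 16 above 0 under all 4 scalings and a median of 0.0055. Ccn2 (connective tissue growth factor) had 0.23 (0.21 to 0.25) and Acta2 (smooth muscle actin) -0.20 (-0.22 to -0.18). In the pulldown 11 of 17 were above 0 (7 with library totals, 10 without the 20 most abundant genes), beside 49.2% of all genes after TMM scaling.

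Relatives and substrates of Bmp1 were lower or alike in High whole-cell RNA. The tolloid-like protease gene Tll1 had -0.0004 (-0.070 to 0.070) and the procollagen C-proteinase enhancer Pcolce had -0.22 (-0.26 to -0.17), beside -0.27 for Bmp1 itself. Of 8 substrate genes tested, 7 were below 0 under all 4 scalings, with a median of -0.28, among them Col1a1 at -0.22 (-0.23 to -0.20), Col1a2 at -0.34 (-0.36 to -0.32), Col3a1 at -0.45 (-0.48 to -0.42) and the proteoglycan decorin (Dcn) at -0.62 (-0.80 to -0.45). In the pulldown 5 of 7 were above 0, beside 49.2% of all genes, but 1 of 7 with library totals and 3 without the 20 most abundant genes.

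The genes most like the 3 members of widest range were sought among 10138 others that reached 20 reads per library, by the distance between log2 CPM profiles over the 4 libraries after each was centred on its mean. Near to Tgfb1 were Ube2e2 and Smpd1, at distances of 0.0627 and 0.0705, and nearest to Bmp1 were Npdc1, Ptov1 and Polr2j, at 0.062 to 0.083. Grem1 had no neighbour as close, with Parm1 at 0.20, Aamdc at 0.22 and Lancl3 at 0.24. Parm1 had 246 and 340 reads in High and Low whole-cell RNA and 93 and 52 in the pulldowns. With 4 libraries such a likeness describes these samples only.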

How the data were processed

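Fragments per gene were deposited as counts by the authors, 1 table for whole-cell RNA and 1 for the pulldown. The submitters' processing notes name cutadapt 2.4, STAR 2.6.0c, HTSeq 0.9.1, StringTie 1.3.4 and GRCm38. Neither the gene annotation nor the strand setting is stated in the labels. The 5 HTSeq summary lines were left out of the library totals; 50.0% to 56.2% of fragments were assigned to a gene. Symbols were paired with 55450 of 55536 IDs, and positions (gene spans) come from RefSeq GRCm38.p6.

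States were compared after TMM scaling (edgeR 4.0.16, R 4.3.3), with exact Clopper-Pearson intervals of the ratio of 2 counts. Pulldown and whole-cell RNA were compared by library totals, and the change of that ratio between states was the difference of the TMM-scaled ratios with a normal interval, where all libraries reached 10 reads. Other comparisons took genes averaging 1 CPM or more. Intervals and calls were tested on simulated data (Python 3.11.15). The percentages of genes lying lower refer to all genes tested. Alternatives covered scaling, filters, the fold line and the interval level.

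All 9 members are described. Of other genes, those beyond 2-fold between states were to be named (none were), and those with most reads per kb of exon, which was not done because exon lengths were not used here. Members and lists were chosen with earlier results of these data known. Results for a few other genes are not reported here.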

Additional observations from a re-analysis of the deposited data

Results flagged for a closer look

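For 3 genes the difference between AF357425-High and AF357425-Low had one sign among whole-cell reads and the other among pulldown reads, each with both intervals clear of no difference. The change of the log2 ratio between the kinds of library was 1.95 for Grem1, -0.84 for Fst and 0.56 for Bmp1. With 1 library in each group, these differences were not tested.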

How the results depend on the processing

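No paired analysis was possible because each group has 1 library and the labels carry no replicate numbers; no library could be left out for the same reason. The count of members beyond 2-fold was 0 in place of 1 in the pulldown with library totals, and for the change of ratio it was 2 in place of 1 with library totals and with the line at 1.5-fold, where Fst joined Grem1. With the line at 1.5-fold, 1 member in place of 0 passed in whole-cell RNA. For the pulldown against whole-cell RNA in AF357425-High, Grem1 turned to 0.12 with TMM, and Fst to 0.45 with TMM, 0.058 without mt-Rnr1 and mt-Rnr2 and 0.17 without the 20 most abundant genes. Of 38 member ratios with a scaling alternative, 12 changed sign in at least 1. For the pulldown against whole-cell RNA, 4 members passed with TMM as with library totals, but 2 of them higher. On the criterion of an interval clear of 0, pulldown members higher in High numbered 1 in place of 4 with library totals, and changes of ratio above 0 numbered 2 in place of 5.

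Over all genes, pulldown-against-whole-cell calls fell from 7834 to 3409 with TMM, 3763 without the mitochondrial ribosomal RNAs and 3659 without the 20 most abundant genes. State calls (33 for whole cells, 679 for pulldowns) became 15 and 302 for genes averaging 5 CPM or more, 64 and 1688 with no filter, and 136 and 1671 at 1.5-fold. Calls for the change of ratio (490) became 257 at 50 reads in each library and 1469 at 1.5-fold. Counts of Bmp2 and Bmp4 are too low for a small difference to be seen. The repeat of the BMP response gene count under the other scalings was chosen after seeing the data.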
